A study of Mus musculus with 18 samples.

Results

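The average Treg effect compares regulatory T cells with conventional CD4 T cells over lymph node, thymus and fat at once. It is the mean of the Treg minus Tconv differences in log2 intensity of the 3 tissues, each tissue weighted equally. A gene was called even where its average passed the limma test (adjusted p under 0.05) and was at least 1 on the log2 scale, which is 2-fold. In addition, its difference in each tissue had to have the sign of the average and lie within 0.5 log2 (1.41-fold) of it. Of 12821 genes tested, 58 were even and higher in Treg and 19 were even and lower. The rule uses the differences themselves, so the likeness of the tissues in these 77 genes is a description with no test.

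All 18 arrays (Affymetrix M430v2) of the series enter the average, as 6 groups of 3 arrays. CD4 T cells were sorted as CD25+ (Treg) or CD25- (Tconv), so Il2ra, which encodes CD25, checks the sort and is no finding. Fat cells came from epididymal fat of male C57BL/6 mice of 25 to 35 weeks, with 8 to 10 mice pooled per array, and the gate took TCRb+ CD4+ cells without B220, CD8a or CD11b. Lymph node cells came from cervical, inguinal and mesenteric nodes of C57BL/6 mice of 32 to 36 weeks. Thymus cells were taken from animals 4 to 6 weeks old of the BDC2.5/NOD strain, which carry a T cell receptor transgene on the NOD background, after depletion of CD8a+ cells. Both used pools of 3 to 6 mice, and sex is stated for the fat mice alone. Tissue therefore cannot be told apart from strain, age and pool size, and errors and p-values measure the spread between these pooled samples.

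Regulatory T cells are CD4 T cells that restrain other immune cells and are defined by the transcription factor Foxp3. They carry the high-affinity receptor for interleukin-2, which signals through STAT5, and depend on interleukin-2 made by other cells. Those of fat are known as a population distinct from those of lymphoid organs.

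The median intensity was 76.9 to 82.2 in the 6 fat arrays and 57.9 to 63.0 in the other 12. Differences within a tissue, of which the average is made, compare arrays of the same range, while levels set across tissues below are on the deposited scale unless another is named. Genes whose 6 group means all lay at or below 65.9, the median of all values, were not tested, and 65.9 is here the dim limit. All 18 arrays held transcripts of the T cell receptor complex. In the fat arrays, 10 adipocyte and stromal markers summed to 4417–9851 in Treg and 4119–7434 in Tconv, against 332–403 outside fat, and 0 of the 5 tested were called on the average by limma, with or without the replicate number as a block, and 0 at an unadjusted p under 0.05. For 15 macrophage markers the sums in fat were 1633–4554 in Treg and 1300–3145 in Tconv, against 732–1133 elsewhere, and 0 of 13 tested were called (1 higher with the replicate block, 0 at an unadjusted p under 0.05). Of all genes tested, 13.1% were called on the average, so 0 calls among so few markers do not show that they were alike. In fat alone, the median difference of the tested markers was 0.19 log2 for adipocyte and stromal and 0.40 for macrophage markers, higher in Treg. For 11 markers of CD8 T cells and NK cells the sums in fat were 1424–1653 in Treg and 6685–8156 in Tconv. In thymus they were 2623–7809 in Treg and 1851–2522 in Tconv, and in lymph node 1287–1727 and 1340–1661. Of 9 tested, 4 were lower on the average, among them Klrd1 at -1.92 log2. For 9 B cell markers the sums were 1127–1564 in Treg and 845–968 in Tconv of lymph node, 389–482 and 374–450 in thymus, and 744–893 and 881–992 in fat. For 9 markers of immature thymocytes they were 1886–2099 and 2569–3058 in lymph node, 4053–9359 and 4446–7075 in thymus, and 1578–2145 and 2551–2683 in fat. The part these transcripts have in the results below was not tested. A transcript level measured in sorted pools does not tell fewer expressing cells from less RNA per cell.

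Over the 3 tissues, 1021 genes were higher in Treg on the average (7.96% of the genes tested) and 663 were lower (5.17%). These shares of all genes are the background for each count of list members called below. For each count of even list members, the background is 58 even higher and 19 even lower among all 12821 genes tested. At least 2-fold were 242 higher (1.89%) and 90 lower (0.702%). Among these 2-fold genes the sign was the same in all 3 tissues for 210 of 242 and 81 of 90. The Treg effect differed between tissues by the limma F test in 119 of the 242 and 48 of the 90, against 6.1% of all genes, or 782. The tissue farthest from the mean of the other two was fat in 617 of those 782 genes, in 101 thymus and in 64 lymph node. Within a tissue, Treg and Tconv arrays numbered alike in their titles deviated together. With the replicate number as a block, 1507 genes were higher, 1346 lower and 1750 different between tissues, while the same 58 and 19 genes were even.

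Even genes were thus a minority of the genes that were 2-fold higher or lower on the average. Those higher in Treg had a median average of 1.30 log2 (range 1.01 to 5.13), with a median gap of 0.46 log2 between the highest and the lowest tissue. Those lower had a median of -1.40 (range -2.76 to -1.01) and a median gap of 0.69. The 95% interval of a difference between tissues reached a median of 0.75 log2 to either side in both sets. In the main fit, which has no block, a tissue difference smaller than that was not detectable in a typical even gene. In the limma F test between tissues 0 of the 77 were called and 9 had an unadjusted p under 0.05. With the replicate block 5 were called, namely Bcl2l1, Lef1, Samsn1, She and Vav2, named here for that reason. Just inside the limit lay Vipr1, whose farthest tissue was 0.50 from the average, with Otud1 and Samsn1 at 0.49. Just outside, at 0.51 each, lay Scml4, Dusp4 and Gadd45b.

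**Figure D1:**
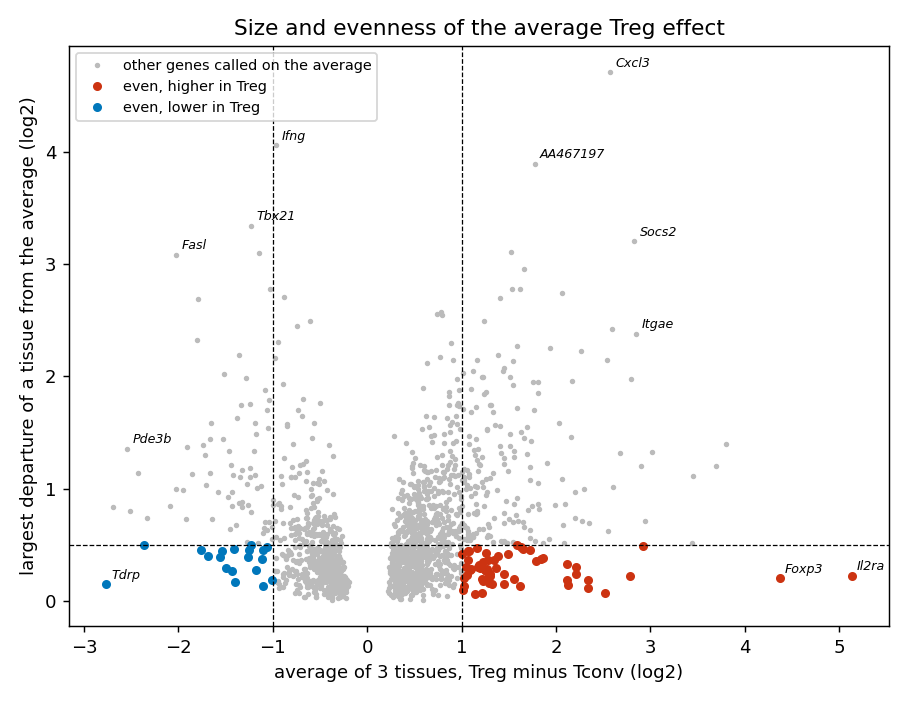
Average Treg effect (x axis, log2) against the largest departure of a tissue from that average (y axis, log2) for genes called on the average. Each point is 1 gene, dashed lines mark the limits of the even rule, and red and blue points are the 58 and 19 even genes. Foxp3 and Il2ra lie far to the right and low, while Cxcl3 and Ifng depart by over 4 log2 in a tissue.

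Foxp3, the factor that defines the lineage, had the largest even effect after the sort marker. Its intensity was 955, 905 and 844 in lymph node Treg and 34.3, 49.1 and 49.9 in lymph node Tconv. In thymus it was 1024, 559.5 and 737 in Treg and 42.7, 22.6 and 32.6 in Tconv. The fat arrays gave 1644, 1579 and 1452 in Treg and 68.3, 138 and 67.9 in Tconv. Every Treg array lay above every Tconv array in each tissue, and the Tconv arrays were below the dim limit in lymph node and thymus and above it in fat. The differences were 4.36 in lymph node, 4.57 in thymus and 4.18 in fat, and the average of 4.37 ± 0.16 log2 (SE, 18 arrays) is 20.7-fold (limma adjusted p = 9.33e-12). Il2ra was 35.1-fold higher on the average, with 5.28 in lymph node, 5.21 in thymus and 4.91 in fat, the direction that the sort on CD25 requires. Another bright probe set of Il2ra was not even, at 1.70, 1.55 and 2.81 in the same order and 2.02 on the average.

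A pair of Ikaros family zinc finger factors that work with Foxp3 in Treg, Ikzf4 (Eos) and Ikzf2 (Helios), showed the same evenness at different levels. Ikzf4 read 2987, 2824 and 1531 in lymph node Treg and 437, 397 and 374 in Tconv. In thymus it read 1968, 2331 and 3275 in Treg and 292, 547 and 451 in Tconv, and in fat 1289.9, 616 and 1061 in Treg and 117, 217 and 203 in Tconv. Both kinds of cell in fat were dimmer than their counterparts elsewhere, yet the groups did not overlap in any tissue. The difference was 2.55 in lymph node, 2.57 in thymus and 2.45 in fat, an average of 2.52 ± 0.19 (SE; adjusted p = 3.56e-08). A gap of 0.12 log2 between its tissues sets this gene among the most even. Another probe set of the gene gave 2.48, 2.24 and 1.19, and one more was flat at an average of 0.02, so the evenness rests on the brightest probe set.

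Ikzf2 was bright in all groups. Its intensity was 5929.5, 5866 and 6904 in lymph node Treg, 6274, 4898 and 6823 in thymus Treg and 5134, 5494 and 5564 in fat Treg. The Tconv arrays gave 766, 1669 and 2297, then 1345, 1182 and 1112, then 1179, 1818 and 1343 in the same order of tissues. All 9 Treg arrays, from 4898 to 6904, lay above all 9 Tconv arrays, from 766 to 2297. The average was 2.11 ± 0.16 (SE; adjusted p = 4.94e-08), and a second probe set was even too, at 2.81. A dimmer probe set of Ikzf2 averaged 0.58, below 2-fold.

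Within the list of helper and Treg cell transcription factors the other even genes were Prdm1, Rora and, in the opposite direction, Lef1. Prdm1 encodes Blimp-1, a repressor found in effector Treg and plasma cells, and averaged 1.37 ± 0.09 (SE; adjusted p = 5.09e-09) with 1.47 in lymph node, 1.08 in thymus and 1.55 in fat. Its level in Treg was 537 ± 114 (SD, n = 3) in lymph node, 224 ± 6.09 in thymus and 1642 ± 152 in fat. Tconv read 191 ± 9.42, 106 ± 4.10 and 560.4 ± 73.8 in the same order, so fat was the brightest and thymus the dimmest in both. Rora, an orphan nuclear receptor, averaged 1.55 ± 0.15 (SE; adjusted p = 8.77e-07), and 5 further bright probe sets had averages of 0.62 to 1.60. Of 34 helper and Treg cell transcription factors tested, 17 were higher and 6 lower. Among them 5 were even higher and 1 even lower, against 58 and 19 of all 12821 genes tested. The median average of the 34 was 0.37 log2, against -0.02 for all genes tested.

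**Figure D2:**
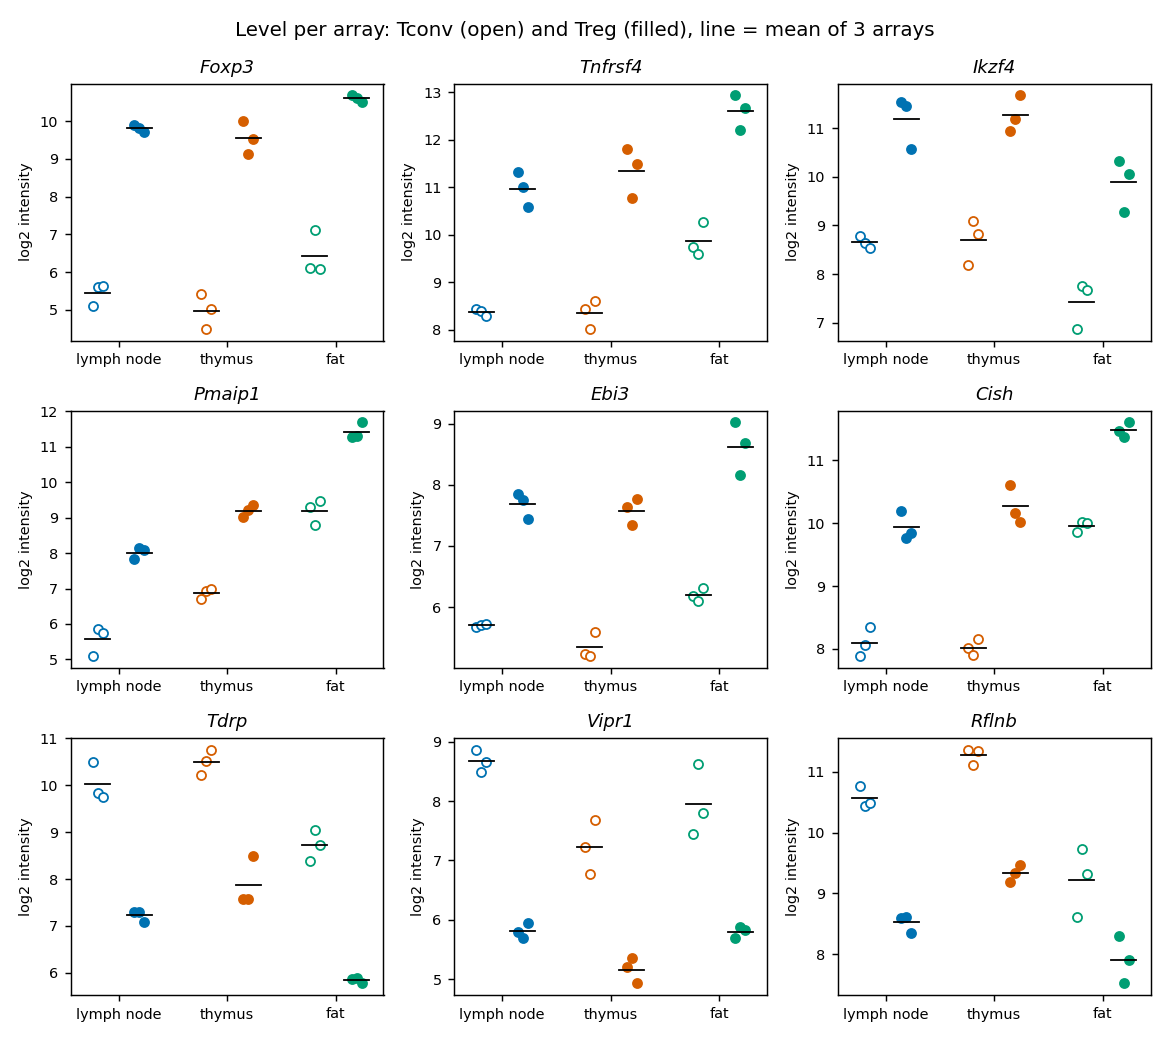
Log2 intensity (y axis) on each array for 9 even genes, by tissue (x axis). Open points are the 3 Tconv arrays, filled points the 3 Treg arrays and lines their means. In these genes the step from Tconv to Treg has a similar height in the 3 tissues although the starting level differs, as for Pmaip1, whose Tconv mean is 48.6 in lymph node and 596 in fat.

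TNF receptor family members deliver costimulatory signals to T cells, and 3 of the 17 tested were even, all higher in Treg. Of all 12821 genes tested, 58 were even and higher. Tnfrsf4 (OX40) read 2539, 2036 and 1528 in lymph node Treg against 344, 334 and 313 in Tconv. Thymus gave 3545, 1742 and 2864 in Treg and 344, 259 and 387 in Tconv, and fat 7813, 4704 and 6527 in Treg and 851, 770.5 and 1222 in Tconv. Again no Treg array fell within the Tconv range of its tissue, and both cell types were brightest in fat. The average was 2.78 ± 0.15 (SE), or 6.86-fold (adjusted p = 9.13e-10). Tnfrsf18 (GITR) averaged 1.45 ± 0.12 (SE; adjusted p = 2.05e-07) with 1.43 in lymph node, 1.60 in thymus and 1.32 in fat. Tnfrsf25 (DR3) averaged 1.07 ± 0.16 (SE; adjusted p = 1.67e-04), with 1 lymph node Tconv array, at 424, above 1 Treg array, at 417. Of the family, 8 were higher and 1 lower on the average, against 7.96% and 5.17% of all genes tested. Tnfrsf9 (4-1BB) and Tnfrsf1b (TNFR2) were higher at 2.20 and 1.78 but outside the tolerance. Tnfrsf1a, which encodes the death-domain receptor TNFR1, was lower at -0.69.

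Among secreted proteins and their receptors, Il1r2 and Ebi3 were even. Il1r2 encodes the decoy receptor of interleukin-1, which binds the cytokine without signalling. It read 268, 439 and 370.0 in lymph node Treg and 34.8, 88.9 and 74.3 in Tconv. In thymus the values were 206, 100.1 and 103 in Treg and 25.7, 29.3 and 26.5 in Tconv, and in fat 239, 259 and 372 in Treg and 69.8, 63.02 and 48.7 in Tconv. Groups were apart in each tissue, the thymus Treg arrays lay below the other Treg arrays, and the average was 2.34 ± 0.19 (SE; adjusted p = 8.35e-08). Of 8 interleukin-1 family receptors tested, 3 were higher and 1 lower (5 and 1 with the replicate block).

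Ebi3 encodes a subunit of interleukin-27 and interleukin-35. Lymph node Treg read 230.3, 216 and 173 and Tconv 51.3, 52.1 and 53.03. The thymus arrays gave 198, 163 and 217 in Treg and 37.5, 36.7 and 48.5 in Tconv, and the fat arrays 519, 287 and 413 in Treg and 72.9, 68.5 and 79.5 in Tconv. The Tconv arrays sat below the dim limit in lymph node and thymus and just above it in fat, and the average was 2.21 ± 0.11 (SE; adjusted p = 3.39e-10). It was the single even gene among 29 helper and effector cytokines, of which 8 were higher and 6 lower (7.96% and 5.17% of all genes). Penk, which encodes the opioid precursor proenkephalin, was higher at 2.28 and Il21 lower at -2.33, both outside the tolerance.

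Gzmb, the serine protease granzyme B of cytotoxic granules, followed the same pattern from a low Tconv level. In lymph node it was 676, 245 and 252 in Treg and 53.9, 51.2 and 44.7 in Tconv, with 1 Treg array well above the other two. In thymus it was 689, 418 and 503 in Treg and 54.3, 42.8 and 52.4 in Tconv, and in fat 2362, 2687 and 1439 in Treg and 371, 348 and 351 in Tconv. All 3 fat Tconv arrays were brighter than 2 of the 3 lymph node Treg arrays, yet within each tissue the groups were apart. The average of 2.92 ± 0.18 (SE) is 7.56-fold (adjusted p = 4.11e-09). Gzmb stayed even in 10 of the 18 fits that left out 1 array, fewer than for most even genes. Gzmk, a granzyme of CD8 and NK cells, went the other way, at -1.18 on the average.

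In the interleukin-2 receptor and STAT5 list, the even genes were the sort marker Il2ra, Ikzf4 and Cish. The list includes Ikzf4, described above as a factor that works with Foxp3. Cish encodes a SOCS family protein that STAT5 induces and that limits cytokine signalling. Its lymph node arrays read 1177, 870.5 and 917 in Treg and 237, 266 and 326 in Tconv. Its thymus arrays read 1565, 1146 and 1040.5 in Treg and 259, 238 and 285 in Tconv, and its fat arrays 2824, 2642 and 3106 in Treg and 932, 1035 and 1028 in Tconv. Fat Tconv overlapped lymph node Treg in level, and the step from fat Tconv to fat Treg was 1.52 log2. The average was 1.87 ± 0.10 (SE; adjusted p = 4.66e-10). Socs2 of the same family was not even. It read 684, 444 and 493 in lymph node Treg against 25.6, 27.2 and 31.7 in Tconv, but 988, 1116 and 1134 in fat Treg against 1238, 1561 and 1400.2 in fat Tconv. Its effect was 4.24 in lymph node, 4.62 in thymus and -0.37 in fat, and the F test between tissues gave an adjusted p of 1.03e-07. Il2rb, the receptor's beta chain, was likewise uneven at 2.57 in lymph node, 1.88 in thymus and 0.22 in fat. Of the 21 genes of the list tested, 7 were higher, Il2ra and Ikzf4 among them, and 2 lower, the latter being Bcl2 and the kinase gene Pim2.

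Of 16 Bcl2 family and death genes tested, 4 were higher and 2 lower (9 and 2 with the replicate block), against 7.96% and 5.17% of all genes. The even ones were Pmaip1 and Bcl2l1. Pmaip1 encodes Noxa, a BH3-only protein that promotes apoptosis. It read 227, 283 and 269.9 in lymph node Treg and 34.2, 57.8 and 53.7 in Tconv, 518, 597 and 659 in Treg and 105, 121 and 127 in Tconv in thymus, and 2496, 2525 and 3290.5 in Treg and 633, 444 and 709 in Tconv in fat. Both cell types were dimmest in lymph node and brightest in fat, fat Tconv lay above lymph node Treg, and the groups within a tissue were apart. The average was 2.34 ± 0.12 (SE), or 5.05-fold (adjusted p = 4.21e-10). Bcl2l1, which encodes the survival protein Bcl-xL, averaged 1.06 ± 0.11 (SE; adjusted p = 2.84e-06). Bcl2 itself was 0.50 and 0.22 in lymph node and thymus, where it passed no test, and -3.81 in fat.

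Calcium-binding and actin-bound proteins held 4 even genes among 25 tested, of which 12 were higher and 0 lower (0 lower at an unadjusted p under 0.05, 1 with the replicate block, all by limma). Of all genes tested, 7.96% were higher and 5.17% lower, and 58 and 19 of the 12821 were even in these directions. Capg caps actin filaments and read 885, 411 and 311 in lymph node Treg against 123, 95.2 and 83.2 in Tconv. It read 221, 93.3 and 137 in Treg and 35.1, 33.7 and 44.9 in Tconv in thymus and 728, 888 and 1128 in Treg and 81.4, 291 and 193 in Tconv in fat. Arrays of a group spread more than for most even genes, and the average was 2.21 ± 0.24 (SE; adjusted p = 3.81e-06). Anxa4 and Anxa1, annexins that bind phospholipid membranes, averaged 1.84 ± 0.17 and 1.19 ± 0.15 (SE). Lgals1, the lectin galectin-1, averaged 1.03 ± 0.19 (SE). It was even in 13 of the 18 fits that left out 1 array and not under quantile normalization. S100a6, with the largest average of the list at 2.59, and S100a4, at 2.16, were not even. Their effect differed between tissues and was largest in thymus, at 5.01 and 3.62.

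Map3k8 and Nol4l completed the 14 largest even genes higher in Treg. Map3k8 encodes the kinase Tpl2 upstream of ERK and averaged 2.11 ± 0.16 (SE; adjusted p = 3.85e-08) with 1.79 in lymph node, 2.31 in thymus and 2.24 in fat. It read 301, 238 and 379.5 in lymph node Treg against 76.7, 77.8 and 111 in Tconv, and 763, 1336 and 1215 in fat Treg against 171, 237 and 288 in Tconv. Nol4l averaged 2.13 ± 0.11 (SE; adjusted p = 4.21e-10) with 2.27 in lymph node, 2.05 in thymus and 2.07 in fat. Its 95% intervals for the differences between tissues lay within 1 log2, as they did for 12 of the 58 genes. The NF-kB list holds subunits and regulators of a pathway that Tpl2 takes part in. Of its 23 genes tested, 12 were higher (15 and 2 lower with the replicate block), against 7.96% of all genes. None was even, against 77 of all 12821 genes tested, so this is not read as a trait of the list. Its largest, Nfkbie, Traf1 and Bcl3, averaged 1.51, 1.24 and 1.15, each with its largest difference in fat.

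**Figure D3:**
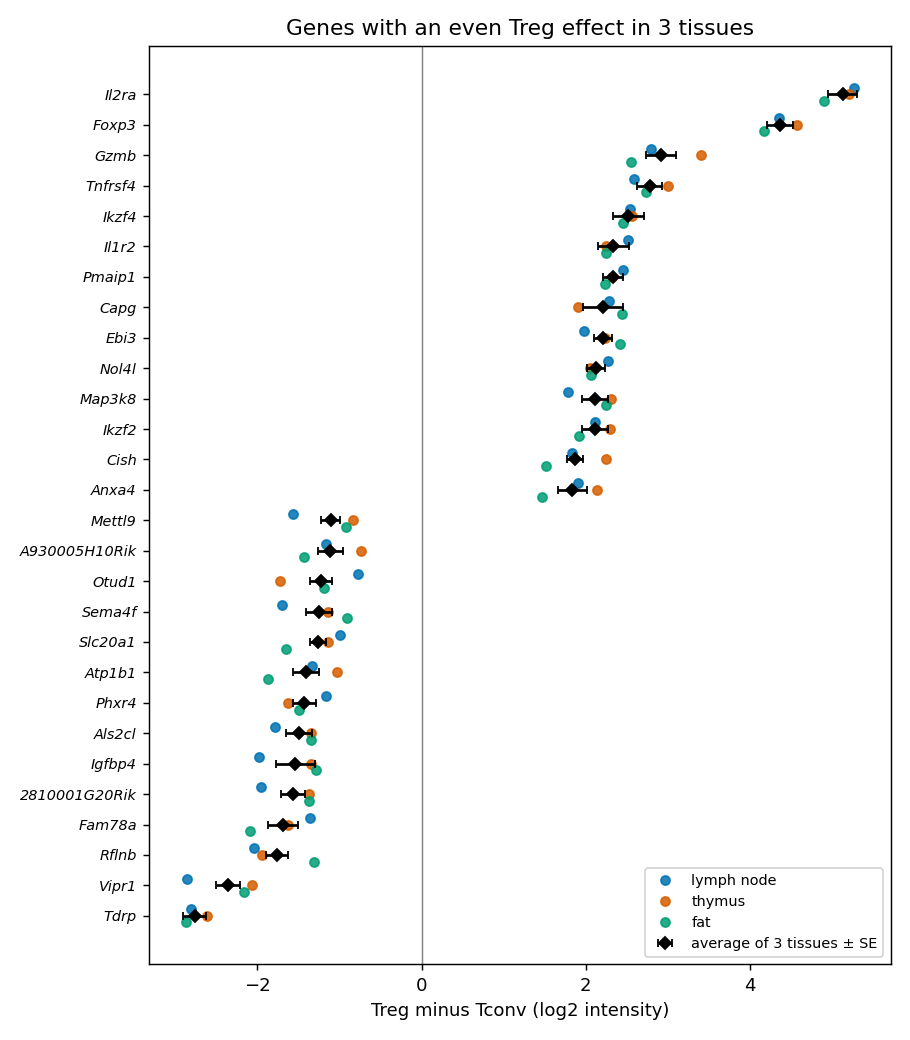
Treg minus Tconv difference (x axis, log2 intensity) for the 14 largest even genes in each direction whose Treg and Tconv arrays overlap in no tissue. Coloured points are the tissues and black diamonds the average with its SE. The tissue points of each gene lie within 0.5 log2 of its diamond, from 5.13 for Il2ra to -2.76 for Tdrp.

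The remaining even genes higher in Treg are named here after their values were seen. From 1.78 down to 1.45 log2 on the average came Vav2, Fabp5, She, Ctla2b, Plcb4, Samsn1, Frmd4b and Ptpn13, beside Rora and Tnfrsf18. Fabp5 binds fatty acids and Ctla2b resembles the propeptide of cathepsins. Between 1.38 and 1.20 lay Armcx4, Pros1, Dennd5a, Mapkapk3, Phlda1, Plp2, Phtf2, Mxd1, Reep3, Ergic1, Ptprs, Mgat5, Camk2n1, Snx18, Zfp52, Tasp1 and Nr4a3, beside Prdm1 and Dusp1. Pros1 encodes protein S, and Nr4a3 and Dusp1 are immediate early genes that antigen receptor signals induce. Another bright but dimmer probe set of Nr4a3 was flat, at an average of -0.02. Of 29 immediate early genes tested, 15 were higher and 3 lower (17 and 5 with the replicate block), and Dusp4, a phosphatase of ERK just outside the tolerance, had the largest average, 3.44 ± 0.15 (SE). Between 1.19 and 1.01 lay Cst7, Ehd1, Kif5c, Acot7, Ifngr1, Afdn, Vps54, Csrp2, Crem, Cyp4v3 and Gabarapl1, beside Anxa1, Tnfrsf25, Bcl2l1 and Lgals1. Csrp2 had a mean above the dim limit in fat Treg alone, at 142.6, with means of 22.6 to 61.6 in the other groups. Ifngr1 encodes a chain of the interferon gamma receptor and averaged 1.09 ± 0.09 (SE). Ehd1 had the widest error, 1.16 ± 0.33 (SE; adjusted p = 0.0269), and its Treg and Tconv arrays overlapped in every tissue.

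Genes lower in Treg were led by Tdrp, a nuclear protein gene named for its expression in testis. It read 158, 157 and 135 in lymph node Treg and 1446, 909 and 867 in Tconv. The thymus arrays gave 191, 191 and 361 in Treg and 1192, 1460.5 and 1733 in Tconv, and the fat arrays 58.7, 59.1 and 54.97 in Treg and 335, 528 and 422 in Tconv. Fat Treg sat below the dim limit and no group overlapped its partner. The differences were -2.80 in lymph node, -2.61 in thymus and -2.87 in fat, an average of -2.76 ± 0.14 (SE; adjusted p = 4.44e-10). Its intervals between tissues lay within 1 log2, as they did for 2 of the 19 genes.

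Vipr1, a receptor for vasoactive intestinal peptide that raises cyclic AMP, came next. Tconv read 467, 359.6 and 404 in lymph node, 149, 109.5 and 205 in thymus and 174, 395 and 223 in fat. Treg read 55.6, 51.5 and 61.9, 36.7, 40.8 and 30.5 and 51.6, 58.7 and 56.9 in the same order. All 9 Treg arrays lay below the dim limit and all 9 Tconv arrays above it. The average was -2.36 ± 0.14 (SE; adjusted p = 3.92e-09). In the cyclic AMP list 4 of 24 genes were higher and 6 lower (5 and 8 with the replicate block). Crem, a cyclic AMP response modulator, was even and higher at 1.03 ± 0.23 (SE). It passed in no single tissue, and its Treg and Tconv arrays overlapped in fat. The even call of Crem held in 13 of the 18 fits that left out 1 array. It was lost under quantile normalization and with the mean of probe sets. The phosphodiesterase genes Pde3b and Pde4b were lower at -2.54 and -1.08 without being even.

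Rflnb, also known as refilin B, regulates actin with filamin. Its lymph node arrays read 388, 392 and 326 in Treg and 1738, 1379 and 1436 in Tconv. In thymus they read 583, 648 and 706 in Treg and 2635, 2200.3 and 2608 in Tconv, and in fat 316, 184 and 239.6 in Treg and 392, 845 and 635 in Tconv. The fat groups were the closest, with the brightest Treg array at 316 and the dimmest Tconv array at 392. The average was -1.76 ± 0.13 (SE; adjusted p = 4.63e-08). Fam78a, of unknown function, averaged -1.69 ± 0.18 (SE) with -1.36 in lymph node, -1.62 in thymus and -2.09 in fat.

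Igfbp4 and Lef1 are genes of naive T cells, and both were even. Lef1, an HMG box factor of the Wnt pathway, averaged -1.06 ± 0.12 (SE; adjusted p = 7.55e-06) with -1.32 in lymph node, -0.58 in thymus and -1.28 in fat. Igfbp4, which binds insulin-like growth factors, averaged -1.54 ± 0.24 (SE; adjusted p = 1.54e-04) with -1.98 in lymph node, -1.34 in thymus and -1.29 in fat. It was among the least stable even genes: the same call was made in 10 of the 18 fits that left out 1 array, and other bright probe sets averaged -2.04 to -0.12. Lef1 was little more stable, even in 11 of those 18 fits and not even under quantile normalization. The difference of Lef1 in thymus alone was not called (limma adjusted p = 0.16). Of 17 naive and lymphoid homing genes tested, 10 were lower, with a median of -0.79, and 0 higher by limma (0 at an unadjusted p under 0.05, 1 with the replicate block). Satb1, Dapl1, S1pr1 and Ccr7, which encode chromatin, lymphoid and homing proteins, averaged -1.72, -1.66, -0.93 and -1.09 and were not even.

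Other lower genes encode membrane proteins. Atp1b1, the beta subunit of the sodium pump, read 1653, 1834 and 1535 in lymph node Treg and 4327, 4358 and 3912 in Tconv. It read 2531, 2680.3 and 3968 in Treg and 5690.5, 5630.1 and 7113 in Tconv in thymus and 653, 295 and 323 in Treg and 1085, 2081 and 1336 in Tconv in fat, with no overlap. The average was -1.41 ± 0.16 (SE; adjusted p = 4.33e-06). A probe set of Atp1b1 nearly as bright was not even, at -1.27 in lymph node, -0.88 in thymus and -2.12 in fat. Another gave -1.83, -1.29 and -3.55, and one more was even at -1.03 on the average. Slc20a1, a phosphate transporter, averaged -1.26 ± 0.10 (SE; adjusted p = 9.04e-08), and Sema4f, a semaphorin, -1.25 ± 0.16 (SE; adjusted p = 2.14e-05). A dimmer probe set of Slc20a1 was not even, at -0.82 in lymph node, -0.26 in thymus and -2.26 in fat. Als2cl averaged -1.50, Otud1, a deubiquitinase, -1.23, and Mettl9, a methyltransferase, -1.11. Phxr4, 2810001G20Rik and A930005H10Rik, whose functions are not described here, averaged -1.43, -1.56 and -1.11. Named after their values were seen, Gm34006, Pgap1, Nfe2l2 and Dennd2d complete the 19, with averages of -1.40 to -1.01. Nfe2l2 encodes Nrf2, the factor of the antioxidant response, with differences of -1.01, -1.24 and -1.07 in lymph node, thymus and fat.

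Among 34 T cell receptor signalling genes tested 2 were higher and 13 lower (3 and 19 with the replicate block), with a median of -0.31, against 7.96% higher and 5.17% lower of all genes. None of the 34 was even, against 77 of all 12821 genes tested. Themis, an adaptor of thymocyte selection, averaged -1.95 with -1.95 in lymph node, -0.97 in thymus and -2.93 in fat (F test adjusted p = 3.57e-05). Txk, a kinase of the Tec family, averaged -1.33. Cd4, by which both populations were gated, averaged -0.54 and passed in no single tissue.

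**Figure D4:**
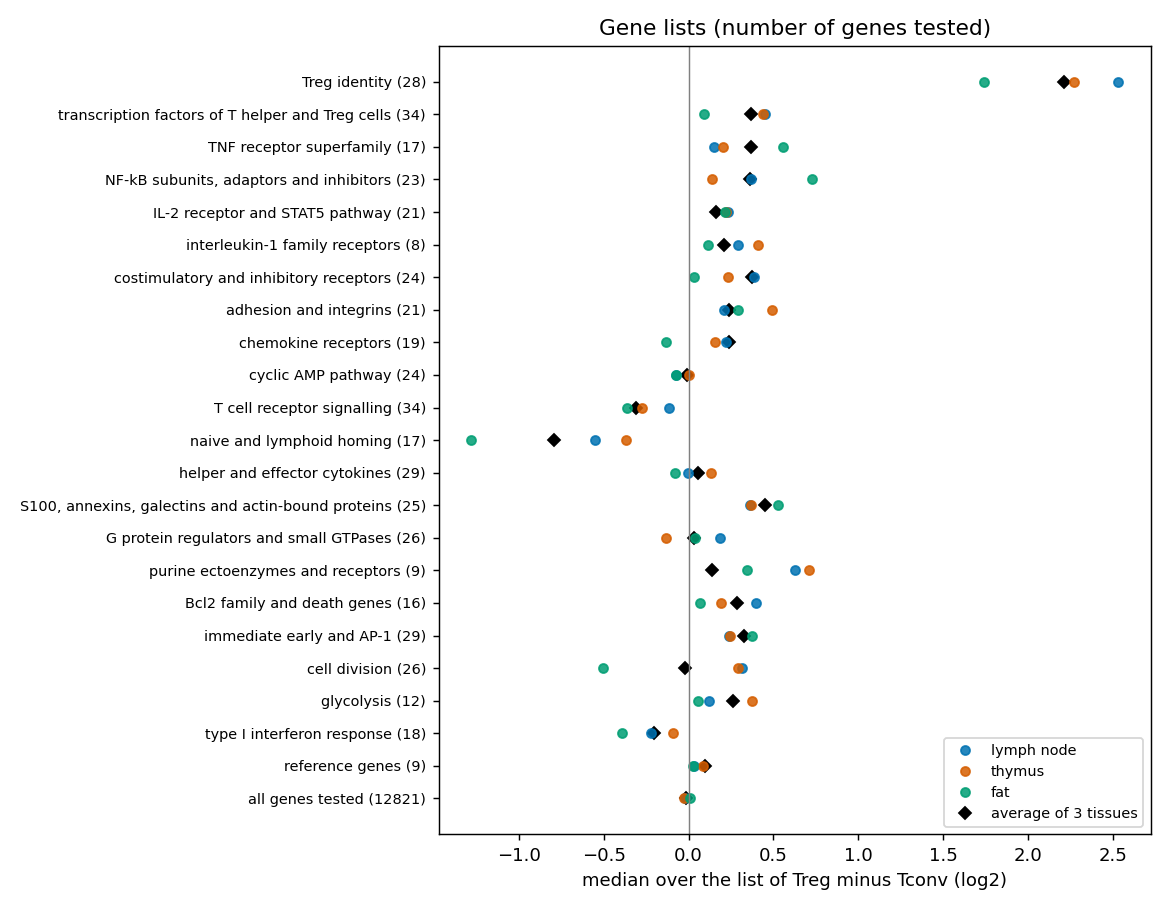
Median over each gene list of the Treg minus Tconv difference (x axis, log2), for each tissue (coloured points) and for the average (black diamonds), with the number of genes tested in brackets. The Treg identity list stands at 2.21 and the naive list at -0.79 on the average, while the reference genes and all genes tested lie near 0.

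The Treg identity list puts the even genes in context. Of its 28 genes tested, 27 were higher on the average and 9 even, namely Foxp3, Il2ra, Ikzf2, Ikzf4, Tnfrsf4, Tnfrsf18, Il1r2, Ebi3 and Capg. Among all 12821 genes tested, 58 were even and higher. The list was chosen for genes known in Treg and is no independent evidence of direction. In 12 of the 28 the effect differed between tissues. Klrg1, a lectin-like receptor of effector cells, followed Il2ra and Foxp3 in size within the list, at 3.80 ± 0.12 (SE), but 4.71 in thymus against 2.41 in fat. Ctla4, the inhibitory receptor, averaged 3.45 ± 0.19 (SE) with 3.34 in lymph node, 4.57 in thymus and 2.44 in fat. In fat its Tconv arrays already read 1066, 2458 and 2368, against 9169, 9919 and 11003 in Treg and 263, 339 and 482 in lymph node Tconv. Itgae, the alpha E integrin, was 4.14 in lymph node, 3.95 in thymus and 0.47 in fat. Lag3 was the 1 member not called, at 0.06.

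Some averages came mostly from a single tissue. Cxcl3, a chemokine, averaged 2.58, but its intensity was 8.63, 8.25 and 8.82 in lymph node Treg and 2102, 1937 and 1733 in fat Treg, against 10.3, 18.8 and 9.60 in fat Tconv. Il10, the inhibitory cytokine, averaged 2.06 with 1.26 in lymph node, 0.13 in thymus and 4.80 in fat. Pparg, the nuclear receptor known for its role in fat Treg, averaged 1.16 with -0.15 in lymph node, 0.33 in thymus and 3.31 in fat. Hpgd, which degrades prostaglandin E, and AA467197 averaged 1.52 and 1.77, with 4.63 and 5.67 in fat and differences between -0.39 and 0.14 elsewhere. In the other direction, Ifng was 0.52 in lymph node, 1.61 in thymus and -5.02 in fat, so that its average of -0.96 had the opposite sign to the difference in lymph node and in thymus, neither of which passed the test. The average of lymph node and thymus without fat was 1.07 and did pass (limma adjusted p = 0.0077). Without Tconv lymph node replicate 3 the limma adjusted p of that average was 0.062, and leaving out any of 4 other arrays (Treg lymph node 3, Tconv lymph node 2, Treg thymus 1 and Treg fat 3) also ended the call. Tbx21 and Eomes, T-box factors of type 1 responses, averaged -1.23 and -0.88, with -4.57 and -3.33 in fat. In thymus Eomes was the other way, at 1.83, and Ccl5 too, at 1.55. Ccl5 and Fasl averaged -1.15 and -2.03, with -4.25 and -5.11 in fat. Each of these differed between tissues by the F test (adjusted p from 1.56e-11 for Cxcl3 to 8.04e-06 for Ifng).

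Even genes did not have even levels. On a scale where all 18 arrays were quantile-normalized, fat Tconv were at least 1 log2 above lymph node Tconv, relative to the median gene, in 36 of the 58 even genes higher in Treg (62.1%). The share was 46.7% of the 184 other 2-fold higher genes and 5.58% of all genes tested. Of the 19 even genes lower in Treg, 12 were at least 1 log2 below in fat (63.2%), against 39.4% of 71 other 2-fold lower genes and 3.11% of all. The deposited scale gave 36 and 13 genes. The shift of Anxa1 from lymph node to fat was 4.95 in Tconv and 5.24 in Treg. Crem shifted by 4.83 and 4.56 and Dusp1 by 3.82 and 3.49, in that order of cells. Ikzf4 was dimmer in fat, with shifts of -1.61 and -1.68. From lymph node to thymus Tconv the median shift was -0.13 in the 58 genes and -0.08 in the 19, with members on both sides. On the quantile scale 3 of the 58 were at least 1 log2 above in thymus and 6 below, as were 0 and 1 of the 19, against 2.33% and 2.3% of all genes. That Treg and Tconv shift alike follows from the rule, which did not use the level itself.

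**Figure D5:**
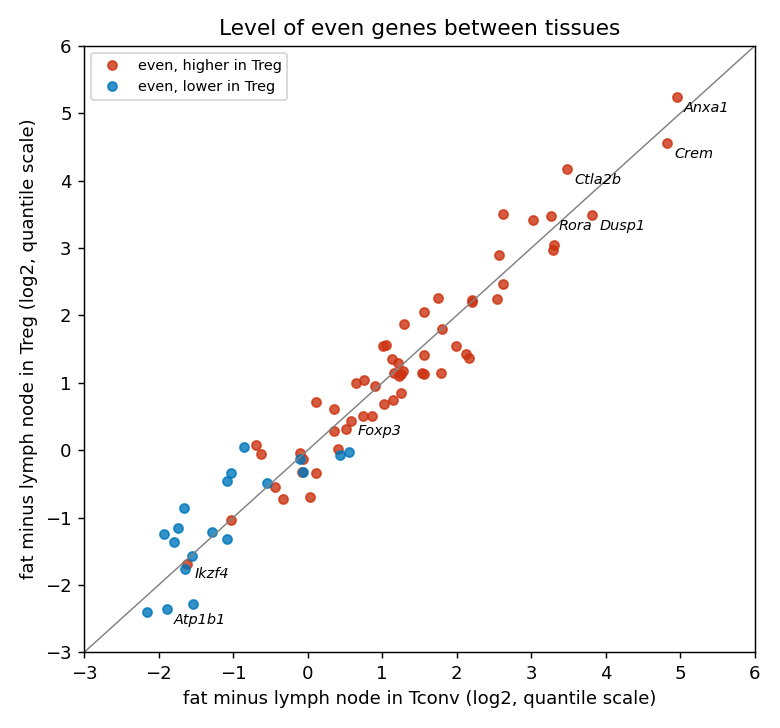
Fat minus lymph node difference (log2, quantile scale) of the 77 even genes in Tconv (x axis) and in Treg (y axis). The even rule keeps points near the diagonal, and the spread along it, such as -1.89 for Atp1b1 and 4.95 for Anxa1 in Tconv, is the change in level between tissues.

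Promoters are shown for a few even genes, picked by hand among those named above for which the RefSeq table (GRCm38.p6) held one. Each is given as the 250 bases before the start, 5′ to 3′ on the gene's strand. How many of the genes shown carry a match is therefore no result, and shares over the whole sets are given below. Capitals mark matches to any of 5 motifs searched on both strands, namely the STAT motif TTCNNNGAA, the forkhead motif TGTTTAC, the AP-1 motif TGANTCA, the cyclic AMP response element TGACGTCA and the RUNX motif TGTGGTT. Foxp3 is shown by its second start (chrX:7580233-7580482, plus strand), since the window of its first start (chrX:7579426-7579675) holds no match, Il1r2 by chr1:40085843-40086092 (plus), Tnfrsf18 by chr4:156026072-156026321 (plus), Gzmb by chr14:56262335-56262584 (minus) and Vipr1, without a match, by chr9:121642466-121642715 (plus).
Foxp3: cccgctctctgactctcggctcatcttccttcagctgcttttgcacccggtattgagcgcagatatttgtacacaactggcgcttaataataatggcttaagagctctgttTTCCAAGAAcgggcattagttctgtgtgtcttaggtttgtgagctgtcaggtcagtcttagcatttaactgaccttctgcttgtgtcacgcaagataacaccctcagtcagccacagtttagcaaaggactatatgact
Il1r2: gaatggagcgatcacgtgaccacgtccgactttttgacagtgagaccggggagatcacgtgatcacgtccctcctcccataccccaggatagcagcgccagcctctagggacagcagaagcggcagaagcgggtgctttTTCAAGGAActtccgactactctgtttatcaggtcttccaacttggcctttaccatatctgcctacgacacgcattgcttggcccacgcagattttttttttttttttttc
Tnfrsf18: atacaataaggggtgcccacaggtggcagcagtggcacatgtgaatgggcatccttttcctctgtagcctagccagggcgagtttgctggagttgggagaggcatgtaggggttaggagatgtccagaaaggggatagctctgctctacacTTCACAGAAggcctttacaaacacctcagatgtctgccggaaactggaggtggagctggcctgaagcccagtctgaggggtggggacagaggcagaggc
Gzmb: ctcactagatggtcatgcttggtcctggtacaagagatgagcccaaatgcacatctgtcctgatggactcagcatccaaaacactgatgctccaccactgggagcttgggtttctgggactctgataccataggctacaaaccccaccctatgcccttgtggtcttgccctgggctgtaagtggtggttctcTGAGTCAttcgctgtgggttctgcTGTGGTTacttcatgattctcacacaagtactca
Vipr1: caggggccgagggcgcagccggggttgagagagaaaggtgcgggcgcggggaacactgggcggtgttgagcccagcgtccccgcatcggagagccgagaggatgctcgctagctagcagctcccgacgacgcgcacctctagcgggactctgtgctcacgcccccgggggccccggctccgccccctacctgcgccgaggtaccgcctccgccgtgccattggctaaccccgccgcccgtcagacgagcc

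The STAT motif lay 139 to 131 bases before the start in Foxp3, 111 to 103 in Il1r2 and 99 to 91 in Tnfrsf18. In Gzmb the AP-1 motif lay 58 to 52 and the RUNX motif 34 to 28 bases before the start. The table held promoters for 45 of the 58 even genes higher in Treg (57 promoters), 18 of the 19 lower (30) and 10341 of the 12821 tested (13193). The STAT motif was in 6 of 57 promoters of the higher genes (10.5%), 1 of 30 of the lower (3.33%) and 5.92% of all. The 6 were those of Foxp3, Il1r2, Tnfrsf18, Tnfrsf25, Pros1 and Gabarapl1, and the 1 was that of Fam78a. The AP-1 motif was in 7.02%, 3.33% and 5.02% in the same order, and the cyclic AMP element in 3.51%, 0 of 30 and 2.36%. The forkhead motif was in 1.75%, 3.33% and 2.44%, and the RUNX motif in 1.75%, 3.33% and 3.4%. A match is a description of letters in this window, and whether the sets differ was not tested.

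Single arrays and probe sets bore on which genes were even. In fits that left out 1 array each, 54 to 69 genes were even and higher and 13 to 23 even and lower, the fewest lower without Tconv fat replicate 2. Of the genes named even, 36 of 58 and 6 of 19 were so in all 18 such fits. Treg arrays lay above Tconv arrays in all 3 tissues in 48 of the 58 (1.89% of all genes did) and below in 17 of the 19 (0.991%), which the rule partly fixes. It fixes nearly all of the next count too, so that nothing is read from it. Pairs of arrays of the same number had the direction of the average in 9 of 9 cases in 58 of the 58 (4.14% of all genes) and 18 of the 19 (3.6%). Single tissues called 42 of the 58 higher and 13 of the 19 lower in all 3 at once, which the rule again partly fixes. Of all genes called on the average, 114 of 1021 higher and 44 of 663 lower passed in all 3 tissues. In a single tissue, the share of all genes called was 3.21% higher and 1.11% lower in lymph node. It was 3.21% and 1.77% in thymus, and 6.32% and 5.19% in fat. Of 70 other bright probe sets of 39 even genes, 59 had the direction of the main one in all 3 tissues and 54 stayed within 0.5 log2 of their own average. Only 31 of the 70 reached 2-fold, and the median ratio of their average to that of the probe set used was 0.737.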

How the data were processed

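RNA of sorted CD4 T cells, amplified in 2 rounds per the labels' protocols, was measured on 18 arrays. The authors deposited linear probe set intensity made by RMA (background correction, quantile normalization and probe summary) in GenePattern, per the submitters' processing notes, whose version is not given in the sources used here. The sources used here do not say whether the tissues shared 1 normalization, and the fat arrays have higher medians. Log2 of the deposited intensity was taken here, and the number of arrays limits the precision.

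Of 45101 probe sets, 64 were controls, 34945 had 1 gene symbol, 932 several and 9160 none in the annotation used. Each of 18193 genes was represented by its probe set of highest mean, and 12821 genes with a group mean above the median of all values (log2 6.04, intensity 65.9) were tested. Other probe sets of a gene can differ.

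Limma 3.58.1 (lmFit, eBayes) in R 4.3.3 fitted a mean for each of the 6 groups, with 12 residual and 4.83 prior degrees of freedom. The average is the contrast that weights each tissue by 1/3, and the F test takes the 2 differences between tissues. P-values are Benjamini-Hochberg adjusted over the 12821 genes and called under 0.05. The scripts were tested on simulated data.

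Named genes are the 14 largest even averages in each direction whose Treg and Tconv arrays overlap in no tissue, the 5 widest ranges between tissues in each direction among genes that differ between tissues, the 5 of smallest p in each direction that pass in no single tissue, from each list up to 3 called genes of largest average either way, and Foxp3, Il2ra, Ctla4, Ikzf2, Il2rb, Cd4, Il10 and Pparg. Other genes are named as members of the even sets or of a list. Members, lists and rules were chosen with earlier results of these data known.

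Deviations from the group mean of Treg and Tconv arrays with the same replicate number in the titles correlated across genes at 0.35 to 0.68 in all 9 pairs, against -0.56 to 0.19 for other numbers, so the numbers pair the arrays. A shared day is not stated. The main fit has no block, since the submitters name none, and the blocked values are given beside counts they move by over 1.5 times and calls they change. Other alternatives were quantile normalization, the mean of all probe sets, the filter, an offset, array weights, other limits of evenness, each tissue left out and each array left out.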

Additional observations from a re-analysis of the deposited data

Results flagged for a closer look

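Of the 128 named genes, 56 had a Treg effect that differed between the 3 tissues by the limma F test at an adjusted p under 0.05. The value given for each is the gap, in log2, between its highest and its lowest Treg minus Tconv difference. The tissue farthest from the mean of the other two was fat in 42 of these genes, thymus in 9 and lymph node in 5. The cause of these differences was not tested, and tissue cannot be told apart from strain, age and pool size.

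With fat apart, the widest gaps were 7.32 for Cxcl3, 6.64 for Ifng, 6.06 for AA467197, 5.80 for Ccl5, 5.13 for Tbx21, 4.99 for Socs2, 4.84 for Hpgd, 4.83 for Fasl, 4.67 for Il10, 4.36 for Ccr1 and 4.30 for Bcl2. Somewhat narrower were gaps of 4.04 for Itgb1, 3.87 for Ccr6, 3.68 for Rgs1, 3.66 for Itgae, 3.46 for Pparg, 3.43 for Sh2d1a, 3.26 for Itgb3, 3.25 for Gpr83, 3.14 for Ptger2, 3.08 for Slamf6 and 3.04 for Nt5e. Next came gaps of 3.03 for Cd96, 3.00 for Bach2, 2.74 for Btla, 2.63 for Gzmk, 2.42 for Nfkbie, 2.35 for Il2rb, 2.30 for Klrg1, 2.21 for Ubash3b, 2.17 for Satb1 and 2.03 for Hk2. The narrowest with fat apart were 1.88 for Casp4, 1.84 for Gadd45a, 1.79 for Il1rl2, 1.77 for Gimap9, 1.69 for Ifit2, 1.67 for Bcl3, 1.63 for Bcl2l11, 1.44 for S1pr1, 0.99 for H2-Eb1 and 0.76 for Oas1a. The first of these include cytokine and chemokine genes (Cxcl3, Ifng, Ccl5, Il10), the T-box factor Tbx21 and the prostaglandin-degrading enzyme Hpgd, and none of the 42 is an even gene.

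With thymus apart, the gaps were 5.15 for Eomes, 4.04 for Il18r1, 3.67 for S100a6, 2.45 for S100a4, 2.14 for Itgb8, 2.12 for Ctla4, 1.96 for Themis, 1.30 for Tpi1 and 1.30 for Cd81. S100a6 and S100a4 encode calcium-binding proteins and Ctla4 the inhibitory receptor. With lymph node apart, they were 2.99 for Dapl1, 2.53 for Pdcd1, 2.45 for Pde3b, 1.95 for Entpd1 and 1.12 for Slc2a3. Pde3b encodes a phosphodiesterase and Entpd1 the ectoenzyme CD39.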

How the results depend on the processing

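Quantile normalization, the mean of a gene's probe sets, no filter on dim signals, a filter at log2 7 and an offset of 32 kept all 5 counts (average higher and lower, even higher and lower, different between tissues) within 1.5 times. Of the 58 and 19 even genes, 53 and 16 were shared under quantile normalization and 35 and 13 with the mean of probe sets. The offset of 32 kept 40 and 14 of them even, and array weights 46 and 14, so like counts hid a change of members. The replicate block gave 1346 lower genes and 1750 that differ between tissues, and changed no call of a named gene on the average. A random block gave 1573 higher, 1384 lower and 1928 different. Array weights, whose estimation stopped before it converged, gave 1554, 1336 and 3213. In 3 separate fits 1212 genes differed. These settings changed the error model or the weights of arrays.

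Averages of 2 tissues have a looser even rule by construction. Without lymph node 105 genes were even and higher and 42 lower, without thymus 139 and 47, and without fat 188 and 56. Without fat 349 genes were lower and 48 differed. Limits of evenness set the counts: within 0.35 log2 gave 7 lower, within 0.75 gave 111 and 33, a smallest difference of at least 2/3 of the largest 36 and 9, and an average of at least 0.5 gave 258 and 157. Chosen after seeing the data, 95% intervals within 1 log2 left 12 and 2, and a second even probe set 8 and 7.

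Leaving out each array gave 907 to 1075 higher, 576 to 813 lower, 54 to 69 even higher, 13 to 23 even lower and 589 to 1028 different. Single arrays ended the call on the average of Bcl2l11, Btg2, H2-Eb1, Hk2, Ifng, Oas1a and Oas2 among the named genes. Reversed averages were -0.26 for Il18r1 without thymus and, without fat, -0.17 for AA467197, 0.36 for Bcl2, 0.0078 for Bcl2l11, 0.40 for Ccl5, 0.21 for Cd96, 0.34 for Eomes, -0.036 for Hpgd, 1.07 for Ifng, 0.64 for Itgb1, 0.10 for Sh2d1a, 0.076 for Slamf6 and 0.44 for Tbx21, genes whose average came from the tissue left out. Of these Ifng and Itgb1 were also called without fat (limma adjusted p of 0.0077 and 4.57e-04).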

Other observations

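Lists of receptors that steer and adhere held genes higher or lower on the average. Of 19 chemokine receptors tested, 7 were higher and 2 lower (9 and 2 with the replicate block), against 7.96% and 5.17% of all genes. None was even, against 77 of all 12821 genes tested, so this is not read as a trait of the list. By the limma F test 10 differed between tissues, against 6.1% of all genes. Ccr6 was 2.83 in lymph node, 3.92 in thymus and 0.04 in fat, Ccr1 0.42 in lymph node, 0.04 in thymus and 4.40 in fat, and the orphan receptor gene Gpr83 3.12 in lymph node, 1.77 in thymus and -0.13 in fat. Of 24 costimulatory and inhibitory receptors 10 were higher and 5 lower (14 and 5 with the block), led by Ctla4 at 3.45 and Pdcd1 (PD-1) at 1.69. Of 21 adhesion genes 7 were higher and 4 lower (8 and 6 with the block), and both lists stand against the same shares of all genes. Itgb8, which activates TGF-beta, averaged 3.69 ± 0.22 (SE), and Alcam, a ligand of CD6, averaged 2.35 ± 0.22 (SE) with 2.32 in lymph node, 1.68 in thymus and 3.04 in fat. Among 9 purine genes Entpd1 and Nt5e, the ectoenzymes that make adenosine from ATP, averaged 1.26 and 1.01, and Nt5e was -1.02 in fat. Among regulators of G proteins Rgs1, Gem and Rgs16 were higher at 2.54, 2.09 and 1.92, and Gimap6, Gimap9 and Gimap4 lower at -0.80, -0.53 and -0.41.

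Of 26 cell division genes 0 were called by limma (4 at an unadjusted p under 0.05, 2 higher with the replicate block), against 7.96% higher and 5.17% lower of all genes. Their median was 0.32 in lymph node, 0.29 in thymus and -0.51 in fat. Of 12 glycolysis genes 4 were higher (8 higher and 1 lower with the replicate block), led by the glucose transporter gene Slc2a3 at 0.86, against 7.96% higher of all genes. Of 18 type I interferon response genes 2 were higher and 3 lower (2 and 7 with the block), against 7.96% higher and 5.17% lower of all genes tested, with Isg20 at 0.70 and Ifit2 at -0.81. Cd79b of the B cell markers and H2-Eb1 of class II were higher at 0.73 and 0.38, each as the single called gene of its list, of 6 and 9 tested. The call of H2-Eb1 was lost when Treg lymph node 1, Tconv thymus 2, Treg fat 1 or Treg fat 3 was left out (limma adjusted p of 0.051 to 0.059). Of 7 immature thymocyte markers 1 was lower, Themis (1 higher and 2 lower with the block). The 9 reference genes had 0 calls by limma, 0 at an unadjusted p under 0.05 and 0 with the block.

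The average also called genes that no tissue called alone, 157 higher and 165 lower. Gmds, an enzyme of fucose synthesis, was 0.75 in lymph node, 0.71 in thymus and 0.64 in fat, an average of 0.70 ± 0.13 (SE; adjusted p = 7.47e-04). Its fat Treg arrays read 181, 147 and 166 and fat Tconv 86.9, 112 and 122, without overlap. Eif5a, Lrrc58, Socs5 and Mpp1 averaged 0.36, 0.59, 0.84 and 0.48. In the other direction Pik3r5, a regulatory subunit of PI3K gamma, was -0.69 in lymph node, -0.58 in thymus and -0.62 in fat, an average of -0.63 ± 0.12 (SE; adjusted p = 0.00145). The average of 1500015A07Rik was -0.55, and Ube2d1, Tle4 and Fntb averaged -0.50, -0.87 and -0.34. These steps are below 2-fold and thus outside the even rule.

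Across the 12821 genes the Treg effects of lymph node and thymus correlated at Pearson's r = 0.67, those of lymph node and fat at 0.33 and those of thymus and fat at 0.23. The points are genes, which are not independent, and each pair of tissues shares the probe sets but no array.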
